A study of Mus musculus with 15 samples.

Results

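The 5 genes described here encode the nuclear receptors through which thyroid hormone acts on transcription. Thra and Thrb encode thyroid hormone receptors alpha and beta, and Rxra, Rxrb and Rxrg encode the retinoid X receptors that pair with them. They were taken by symbol and not by a rule on their values, though earlier results of these data were known. All 5 were found in each of 15 count tables, among 46380 genes whose symbols the tables share. Their nuclear RNA was measured in parvalbumin (Pv) neurons, cortical inhibitory cells known for fast spiking. Fluorescent nuclei were sorted from single cortices of adult mice, and titles number the mice separately. All groups carried PvCre and ROSA-tomato-lox, so that Cre, driven by the parvalbumin gene, switched on a nuclear fluorescent protein in cells that had expressed Cre.

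Every mouse of the PTU_TH group (n = 4) was Thra+/+, ate food pellets with propylthiouracil (PTU), a blocker of thyroid hormone synthesis, for 2 weeks, and had thyroid hormone injected intraperitoneally 24 h before dissection. PTU mice (n = 3) were Thra+/+ and had the same diet without the injection. Mut mice (n = 4) were ThraAMI/+, a genotype with a single copy of a floxed allele that yields the dominant negative receptor L400R of TRα1, while the other copy was wild type. Ctrl mice (n = 4) were untreated Thra+/+ littermates of Mut. The hormone, its dose and the sex of the mice are not given in the labels. As models, PTU acts on the whole animal, whereas Cre confines the altered receptor to cells with a history of Cre.

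Thyroid hormone receptors bind DNA mostly as heterodimers with a retinoid X receptor. Without hormone they recruit corepressors and hold target genes down. With hormone, the corepressors are exchanged for coactivators and the target genes are transcribed. The core DNA element is the hexamer AGGTCA, and a common arrangement is a direct repeat of it spaced by 4 bases. A receptor that cannot release corepressors on hormone binding blocks the response of the normal receptor beside it, which is what dominant negative means here. TRα1 is the main receptor of most neurons, and TRα2, a splice form of the same gene, does not bind the hormone.

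Thra lies on chromosome 11 (GRCm38; 98740638 to 98769006, plus strand) and spans 28.4 kb. The transcripts of TRα1 and TRα2 share 1110 coding bases, after which they differ. TRα1 has 410 codons on 9 exons, and TRα2 has 492 codons on 10 exons. The sequences (GENCODE M21 transcripts, plus strand) show where the forms part, with the bases after the shared stretch in capitals. For TRα2 the lower-case bases are those of the same exon as in TRα1, and the capitals are the first of its last exon, at chr11:98768157-98768186.
TRα1, chr11:98764376-98764435: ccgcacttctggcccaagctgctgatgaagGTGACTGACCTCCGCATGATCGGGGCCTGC
TRα2, from chr11:98764376: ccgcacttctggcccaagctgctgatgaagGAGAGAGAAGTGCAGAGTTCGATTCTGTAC
The change L400R falls beyond that junction, in exon 9 of TRα1, with 10 codons after it. The reference sequence around it is shown with the leucine codon in capitals (positions 98764493 to 98764495), and the base change made in the allele is not given in the labels.
TRα1 codon 400, chr11:98764463-98764525: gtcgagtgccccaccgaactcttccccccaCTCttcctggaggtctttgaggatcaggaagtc
Codon 400 of TRα1 is absent from the TRα2 transcript. Counts per gene separate neither the 2 forms nor the wild-type and ThraAMI copies.

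**Figure D1:**
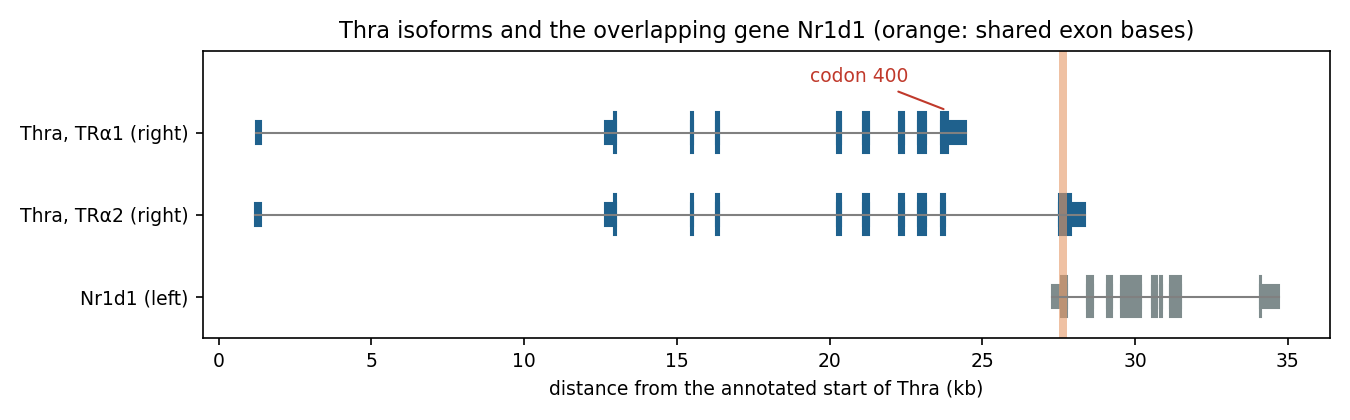
Map of Thra, with distance from the gene's start in kb on the horizontal axis. Boxes are exons of TRα1, TRα2 and Nr1d1, tall where coding, with codon 400 marked, and the orange band covers the 263 bases that Nr1d1 shares with the last exon of TRα2.

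The other genes lie on other chromosomes, all on the plus strand. Thrb (chromosome 14, 17660261 to 18038090) spans 377.8 kb and is the longest. Rxra (chromosome 2, 27676440 to 27762957) spans 86.5 kb, Rxrg (chromosome 1, 167598384 to 167639623) 41.2 kb and Rxrb (chromosome 17, 34031812 to 34038399) 6.6 kb. Of the 5, Thra alone shares exon bases with another gene: 263 of its 4614, or 5.7%, lie in exons of Nr1d1, a circadian repressor gene on the opposite strand. The kit does not mark strand, so reads over those bases could be assigned to neither or either gene.

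Libraries held 12957838 to 19141683 counts in PTU_TH and PTU and 22333742 to 32571175 in Mut and Ctrl, and these pairs of groups came as 2 sets of tables with different gene lists. Set and treatment cannot be told apart in a comparison across the sets. Within groups, libraries differed in the presence of Y-linked counts (PTU_TH 3 and 4, PTU 6 and 7, Mut 1, 2 and 3, Ctrl 2) and in the share of counts from genes over 100 kb, which was 24.9% to 40.6%. Of 12 Pv neuron markers, 11 had counts and summed to 6471 to 11150 CPM, a count rescaled so that every library has an equal total. Pvalb itself had 119.4 to 150.4 CPM in PTU_TH, 90.5 to 105 CPM in PTU, 67.1 to 92.6 CPM in Mut and 115.4 to 137.5 CPM in Ctrl. Cox6a2 was at 0 in every library. Sums were 338.8 to 542.7 CPM for 12 excitatory neuron markers, 96.3 to 298 CPM for 10 markers of other interneurons and at most 216 CPM for each of 4 lists of non-neuronal markers. The astrocyte marker Gfap and the microglial marker P2ry12 were at 0 throughout. Amplified reads carried no molecular identifiers.

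All 5 receptor genes were detected in every library. The lowest of the 75 values was Rxrg in Ctrl replicate 2, with 16 counts. CPM values below use TMM-scaled library sizes over shared symbols, and levels of different genes are compared per kb of exon. Such levels depend on whether reads from introns were counted, which is not given, and Thrb spans 377.8 kb. By this measure Thrb was the highest, with a mean of 52.7 ± 26.0 CPM per kb in PTU_TH (SD, n = 4), 46.5 ± 29.4 in PTU (n = 3), 65.4 ± 16.7 in Mut (n = 4) and 61.9 ± 22.1 in Ctrl (n = 4). Rxrb had 16.5 ± 2.02, 15.8 ± 2.49, 13.3 ± 3.46 and 13.3 ± 2.67 CPM per kb in PTU_TH, PTU, Mut and Ctrl. Thra had 13.6 ± 2.01, 16.5 ± 1.83, 7.11 ± 0.990 and 12.7 ± 1.40 CPM per kb in the same groups. Rxra and Rxrg were the scarce members, at 2.96 to 4.98 and 0.695 to 2.42 CPM per kb as group means.

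The order Thrb, Rxrb, Thra, Rxra, Rxrg held in 11 of 15 libraries. Thra stood above Rxrb in PTU 5, PTU 7 and Ctrl 1, and its mean was the higher of the pair in PTU. In PTU_TH Rxrb was above Thra in each library, but the ranges overlapped, at 13.9 to 18.4 CPM per kb for Rxrb and 11.1 to 15.3 for Thra. In Mut the highest Thra value, 8.47 CPM per kb, was below the lowest Rxrb value, 9.99. Rxrg exceeded Rxra in 1 library, Mut 3. Thrb, at 26.1 CPM per kb or more, lay above every value of every other member. Among 16549 genes the mean CPM of Thrb was higher than that of 98.3%, whereas Rxrg was higher than only 29.2%. Those ranks use CPM without scaling by exon length, so they mix length with abundance.

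**Figure D2:**
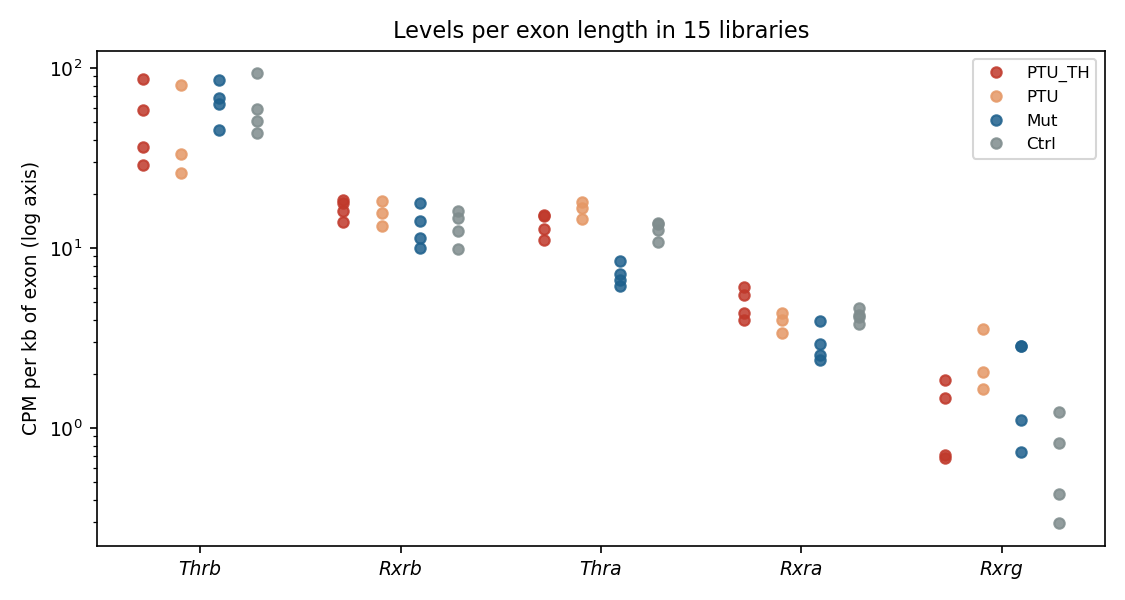
CPM per kb of exon (log axis) for each receptor gene, one point per library, with groups in the order PTU_TH, PTU, Mut and Ctrl. Thrb lies above every other member in all 15 libraries, and Thra in Mut (6.18 to 8.47) lies below Thra in every other group.

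Whether reads from introns were counted is not given, and levels per kb of exon depend on it. With that limit, Thra made up 10.1% ± 2.11 of the summed thyroid hormone receptor signal per kb in Mut, against 17.98% ± 4.74 in Ctrl (SD, n = 4 each). The share was 23.2% ± 10.5 in PTU_TH (n = 4) and 29.9% ± 12.8 in PTU (n = 3). Among retinoid X receptors, Rxrb gave 72.9%, 71.5%, 72.6% and 72.5% of the summed CPM per kb in PTU_TH, PTU, Mut and Ctrl as group means. These shares are descriptions and were not tested.

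The comparison of Mut with Ctrl gives the levels of Thra, which carries the altered allele in Mut, and of its partner genes. Thra, the targeted gene, had 30.6, 28.5, 39.1 and 33.04 CPM in Mut 1 to 4, against 62.5, 58.6, 49.6 and 64.0 CPM in Ctrl 1 to 4. Every Mut library lay below every Ctrl library. The mean was 32.8 ± 4.57 CPM in Mut and 58.7 ± 6.46 CPM in Ctrl (SD, n = 4 each), a ratio of 0.559. By edgeR's quasi-likelihood test over 16949 genes, Thra fell by 0.84 on the log2 scale (SE 0.14, 95% interval −1.15 to −0.53, adjusted p = 0.028). It was 1 of 5 members called, where 0.348% of all genes were called, 0.224% as lower. It was also the 1 member whose groups did not overlap, where 6.12% of all genes did not. Fewer nuclei of a kind and less RNA per nucleus cannot be told apart in these bulk samples. Because the counts do not separate the wild-type and ThraAMI copies, an action of the receptor on Thra and a difference in RNA made or counted from the altered copy cannot be told apart either.

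The call on Thra was close to the threshold. Adding the presence of Y-linked counts as a covariate left the estimate at −0.83 but gave an edgeR adjusted p of 0.12. Treating libraries with the same replicate number as a block gave −0.84 (edgeR adjusted p = 0.0514). Leaving out 1 library gave −0.93 to −0.78, and the call was kept only without Mut 2 or Mut 3. Without Mut 1, Mut 4 or any of Ctrl 1, 2, 3 and 4, the edgeR adjusted p lay between the threshold and 0.137. The direction held in all of these. Nr1d1, the overlapping gene, had 31.4 ± 1.67 CPM in Mut and 25.03 ± 6.40 CPM in Ctrl, a log2 difference of 0.33 ± 0.19 (SE) that was not called (edgeR adjusted p = 0.721).

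**Figure D3:**
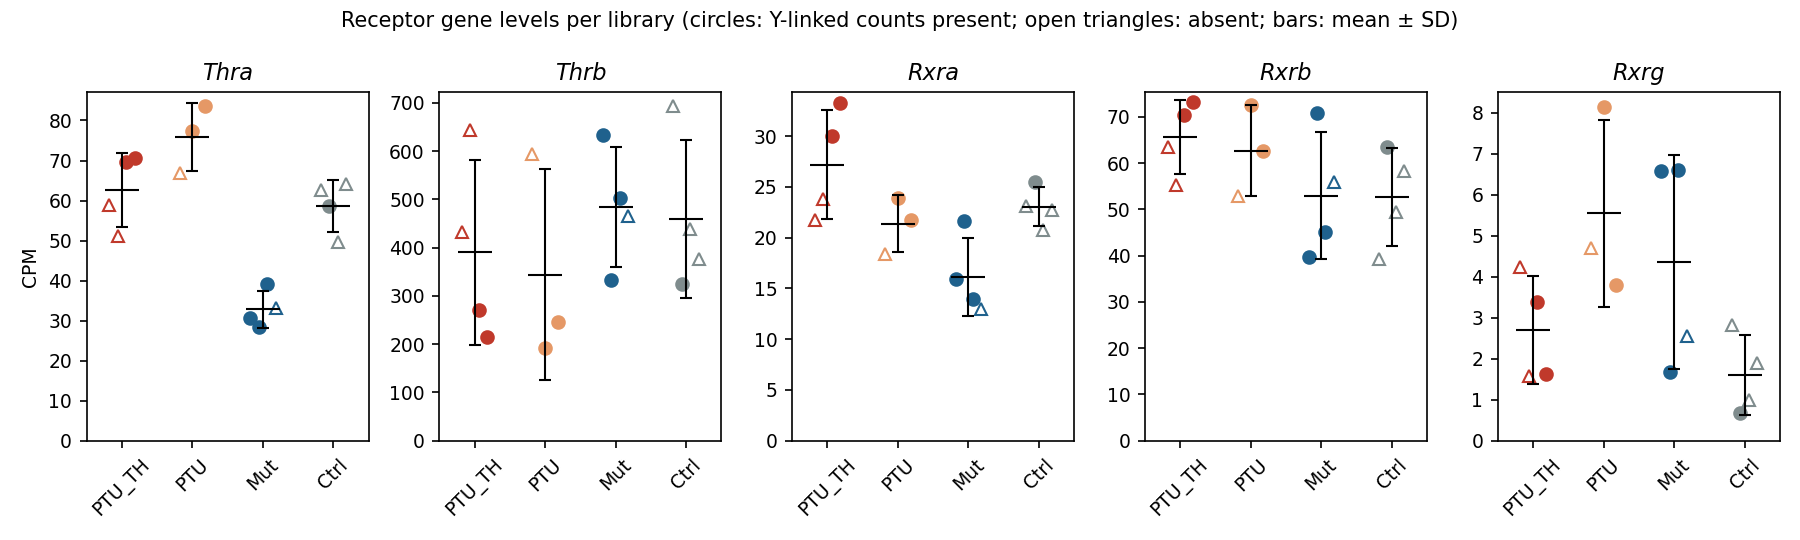
CPM of each receptor gene in every library, one panel per gene, with groups in the order PTU_TH, PTU, Mut and Ctrl; bars are the mean and SD, circles are libraries with Y-linked counts and open triangles those without. Thra is lowest in the 4 Mut libraries (28.5 to 39.1 CPM), and Rxrg is lowest in Ctrl (0.681 to 2.83 CPM), where it overlaps PTU_TH and Mut.

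Thrb did not show a difference of that kind. It had 634, 334, 503 and 465 CPM in Mut 1 to 4, against 694, 324, 439 and 377 CPM in Ctrl 1 to 4. The groups covered nearly the same range, with a log2 difference of 0.08 ± 0.24 (SE; 95% interval −0.46 to 0.61; edgeR adjusted p = 0.981). That interval leaves room for a change of either sign. Rxrb, the main retinoid X receptor by level, had 39.7, 70.9, 45.2 and 55.9 CPM in Mut and 39.3, 63.5, 49.5 and 58.2 CPM in Ctrl. The interval for Rxrb was −0.43 to 0.45 on the log2 scale (edgeR adjusted p = 0.998).

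Rxra, the retinoid X receptor widely expressed outside the brain, had 15.95, 21.6, 13.99 and 13.01 CPM in Mut, against 23.1, 25.5, 20.8 and 22.8 CPM in Ctrl. Mut 2, at 21.6 CPM, overlapped the lowest Ctrl library. The log2 difference was −0.51 ± 0.19 (SE) and was not called (edgeR adjusted p = 0.402). Rxrg, the isotype with the most restricted expression, had 6.59, 1.69, 6.61 and 2.56 CPM in Mut, against 2.83, 0.681, 0.984 and 1.89 CPM in Ctrl. Mut 1 and Mut 3 were above every Ctrl library, and Mut 2 and Mut 4 were within the Ctrl range. Its log2 difference was 1.45 ± 0.54 (SE; edgeR adjusted p = 0.42). At an unadjusted p under 0.05, 3 of 5 members passed (Thra, Rxra and Rxrg), where 8.74% of all genes did. Markers of other interneurons summed to 188.9 to 298 CPM in Mut and 146 to 172 CPM in Ctrl, with 0 of 7 tested called and 7 positive. Of 11 Pv neuron markers tested, 5 were positive and 6 negative. Among them 1, Tac1, was called, as higher (log2 1.17, edgeR adjusted p = 0.0243), where 0.348% of all genes were called. The part of these markers in the values of the receptor genes was not tested.

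The injection of hormone into PTU-fed mice asks whether the receptor genes respond to thyroid hormone within 24 h. None of the 5 members was called, where 0.281% of 15288 genes were called by edgeR. None had groups that did not overlap, where 8.59% of all genes did not overlap. Thra had 59.0, 51.1, 69.6 and 70.5 CPM in PTU_TH 1 to 4, against 66.8, 77.3 and 83.5 CPM in PTU 5 to 7. Both of the highest PTU_TH libraries lay inside the PTU range. The log2 difference was −0.27 ± 0.13 (SE; 95% interval −0.57 to 0.03; edgeR adjusted p = 0.746).

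Rxrg was the one member past an unadjusted threshold of 0.05, where 7.37% of all genes were. It had 4.24, 1.57, 3.39 and 1.63 CPM in PTU_TH, against 4.70, 8.13 and 3.81 CPM in PTU. Only PTU_TH 1 exceeded the lowest PTU library. The log2 difference was −1.03 ± 0.42 (SE; 95% interval −1.98 to −0.08; edgeR adjusted p = 0.619). Rxra had 21.7, 23.8, 30.1 and 33.3 CPM in PTU_TH, against 18.4, 23.9 and 21.8 CPM in PTU. PTU_TH 3 and 4 were above every PTU library, and the log2 difference was 0.36 ± 0.17 (SE; edgeR adjusted p = 0.735). Rxrb had 63.5, 55.2, 70.4 and 73.3 CPM in PTU_TH and 52.8, 72.6 and 62.7 CPM in PTU, with an interval of −0.22 to 0.38 on the log2 scale.

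For scale, Hr, a corepressor gene that thyroid hormone receptors switch on in brain, averaged 47.2 ± 2.95 CPM in PTU_TH (n = 4) and 3.92 ± 1.72 CPM in PTU (n = 3; SD), and was called by edgeR (log2 3.61, adjusted p = 0.00251). Klf9, another hormone target, had a log2 difference of 0.99 (edgeR adjusted p = 0.0556). The upper limits of the 95% intervals for Thra and Rxrb, 0.03 and 0.38, were below both values. The interval for Thrb reached 1.27 and included that of Klf9.

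**Figure D4:**
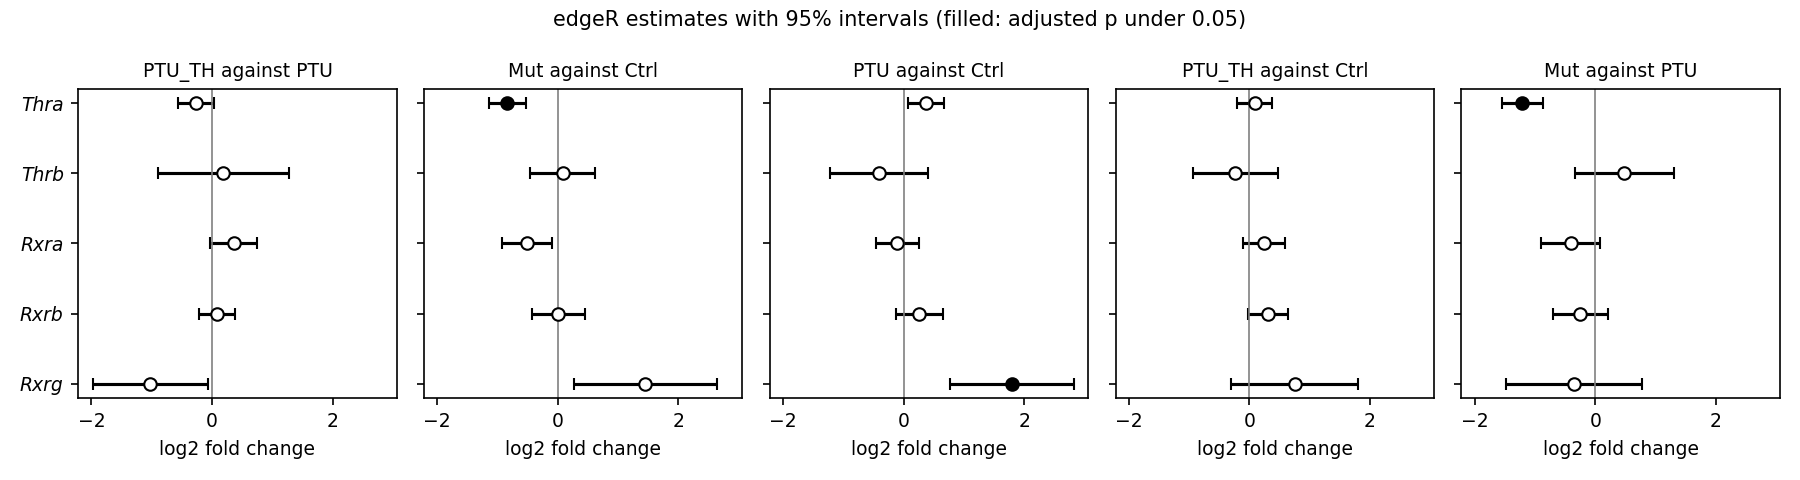
Log2 fold change with 95% interval from edgeR for the 5 receptor genes in each of 5 comparisons, with filled points for adjusted p under 0.05. The filled points are Thra in Mut against Ctrl (−0.84), Thra in Mut against PTU (−1.21) and Rxrg in PTU against Ctrl (1.80).

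PTU was compared with Ctrl across the sets of tables, so that treatment and set cannot be told apart, and 17.0% of 16496 genes were called by edgeR, 4.38% as higher. Against that background, 1 of 5 members was called. Rxrg rose by 1.80 on the log2 scale (SE 0.47, 95% interval 0.78 to 2.82, edgeR adjusted p = 0.0198). The mean was 5.55 ± 2.28 CPM in PTU (n = 3) and 1.60 ± 0.971 CPM in Ctrl (n = 4; SD), a ratio of 3.48. The lowest PTU library had 3.81 CPM and the highest Ctrl library 2.83 CPM. The call was lost without PTU 6 (1.41, edgeR adjusted p = 0.126) or without Ctrl 3 (1.62, adjusted p = 0.0626). With the Y-linked counts as a covariate it was 2.09 (edgeR adjusted p = 0.0262). Oligodendrocyte markers summed to 137.9 to 216 CPM in PTU and 114.9 to 144 CPM in Ctrl, and 10 of 10 had a positive log2 difference (median 0.56), of which 1, Mbp, was called. Excitatory neuron markers summed to 399.9 to 517 CPM in PTU and 372.5 to 441 CPM in Ctrl. Of the 12, 9 had a positive and 3 a negative log2 difference, and 1, Fezf2, was called. Fezf2, a gene of deep-layer excitatory neurons, averaged 4.24 CPM in PTU and 1.45 CPM in Ctrl (log2 1.55, edgeR adjusted p = 0.0155). In PTU_TH against PTU the log2 difference of Fezf2 was −0.95, beside −1.03 for Rxrg, neither called. There 3 of the 12 excitatory neuron markers were positive and 9 negative. Their sums averaged 452.6 CPM in PTU_TH and 453.4 CPM in PTU. In Mut and Ctrl, Fezf2 averaged 1.59 and 1.45 CPM, beside a log2 difference of 1.45 for Rxrg that was not called. The part of these markers in the value of Rxrg was not tested.

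Thra was the other member whose groups did not overlap in PTU against Ctrl, where 27.6% of all genes did not. It had 66.8, 77.3 and 83.5 CPM in PTU and at most 64.0 CPM in Ctrl. The log2 difference was 0.38 ± 0.14 (SE), with an unadjusted edgeR p of 0.0185 and an adjusted p of 0.0866, so it was not called. Thrb had a log2 difference of −0.41 ± 0.37 (SE), Rxra −0.10 ± 0.16 and Rxrb 0.26 ± 0.18. None of these was called (edgeR adjusted p = 0.516, 0.724 and 0.379).

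In PTU_TH against Ctrl, which uses the same Ctrl libraries and also crosses the sets, none of the 5 members was called, where 17.8% of 15814 genes were. None had groups without overlap, where 23.2% of all genes had none. Rxrg averaged 2.71 ± 1.32 CPM in PTU_TH and 1.60 ± 0.971 CPM in Ctrl (SD, n = 4 each), a log2 difference of 0.75 ± 0.48 (SE; edgeR adjusted p = 0.334). Thra averaged 62.6 ± 9.26 CPM in PTU_TH and 58.7 ± 6.46 CPM in Ctrl, a log2 difference of 0.09 ± 0.13 (SE). Rxrb had the smallest unadjusted p of the members, 0.0624, at a log2 difference of 0.31 (edgeR adjusted p = 0.194).

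Mut was set directly against PTU, again across the sets. Thra fell by 1.21 on the log2 scale (SE 0.15, 95% interval −1.55 to −0.87, edgeR adjusted p = 0.000418), a ratio of 0.431. Its highest Mut library, 39.1 CPM, was well below its lowest PTU library, 66.8 CPM. It was 1 of 5 members called, where 15% of 16389 genes were called, 3.54% as lower, and the 1 member without overlap, where 27.5% of all genes had none. The call held in 16 of 16 alternatives, all of which also cross the sets. Nr1d1, whose exons overlap those of Thra, was called lower in Mut than in PTU as well (log2 −0.72, edgeR adjusted p = 0.00979). The part of the shared bases in the value of Thra was not tested. The log2 differences were 0.48 ± 0.37 for Thrb, −0.41 ± 0.22 for Rxra, −0.25 ± 0.21 for Rxrb and −0.35 ± 0.51 for Rxrg (SE). None was called (edgeR adjusted p = 0.278 to 0.731).

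Thrb varied far more within groups than Thra. It had 432, 643, 270 and 216 CPM in PTU_TH 1 to 4, against 594, 193 and 246 CPM in PTU 5 to 7. Its coefficient of variation was 49.3%, 63.3%, 25.5% and 35.7% in PTU_TH, PTU, Mut and Ctrl, against at most 14.8% in any group for Thra. In the PTU_TH and PTU libraries, Thrb had 193 to 270 CPM in the 4 with Y-linked counts and 432 to 643 CPM in the 3 without them. With both terms in the fit, the log2 difference of libraries with from those without Y-linked counts was −1.31 ± 0.15 (SE; edgeR adjusted p = 5.95e-05), in a fit that called 4265 of 15288 genes for that term. Thra, Rxra and Rxrb had differences of the opposite sign for it, 0.27, 0.37 and 0.27 (edgeR adjusted p = 0.0388, 0.0364 and 0.0498), and Rxrg had none that was called (0.00, adjusted p = 0.999). In Mut and Ctrl the corresponding difference was −0.28 (edgeR adjusted p = 0.891).

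The same libraries differed in the share of counts from genes over 100 kb, from which the members were left out. Across all 15 libraries, the log2 CPM of Thrb followed that share with Pearson r = 0.965 and Spearman rho = 0.975. Both had a permutation p of 2e-05, the smallest that the resamples can give, and an adjusted p of 0.0003 over 15 relations computed. Without the 2 libraries farthest from the median share r was 0.958. Within Mut and Ctrl r was 0.969 and rho 0.976 (n = 8, exact permutation adjusted p = 0.00112 and 0.00149). Within PTU_TH and PTU the shares fell into separate ranges, 24.9% to 28.4% and 34.0% to 40.6%, so no coefficient is given there. With the share as a covariate, an alternative chosen after seeing the data, the log2 difference of Thrb was −0.20 in PTU against Ctrl (−0.41 without the covariate) and 0.06 in PTU_TH against PTU (0.19 without it). It was 0.32 in Mut against PTU (0.48 without it), −0.16 in PTU_TH against Ctrl (−0.24 without it) and 0.12 in Mut against Ctrl (0.08 without it). None was called either way, with edgeR adjusted p of 0.0652 to 0.751 with the covariate.

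**Figure D5:**
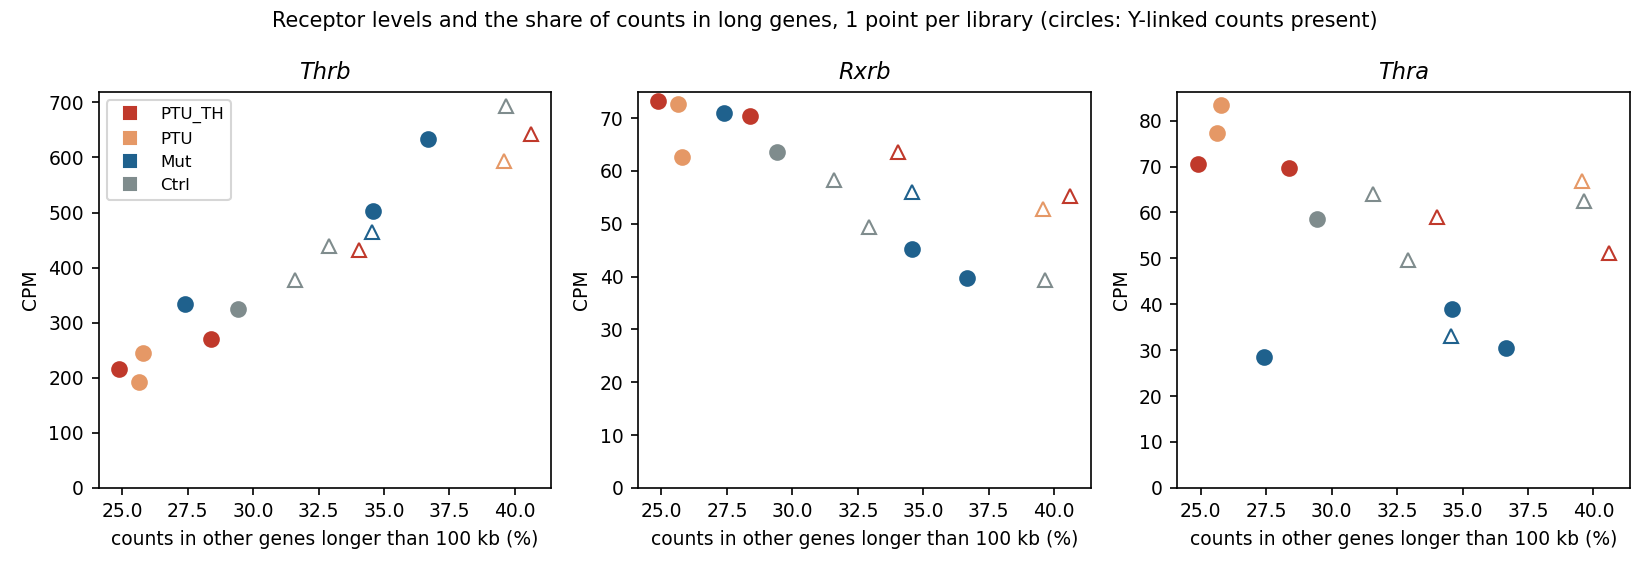
CPM of Thrb, Rxrb and Thra against the percent of counts in other genes over 100 kb, one point per library, coloured by group, with circles for libraries with Y-linked counts and open triangles for those without. Levels of Thrb are higher and those of Rxrb lower to the right, with Pearson r of 0.965 and −0.773 on the log2 scale over 15 libraries.

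Rxrb, the shortest member, ran the opposite way. Over 15 libraries its log2 CPM had r = −0.773 and rho = −0.85 with the long-gene share (permutation adjusted p = 0.0033 and 0.0009), and r = −0.812 without the 2 farthest libraries. Within Mut and Ctrl r was −0.935 and rho −0.976 (n = 8, exact permutation adjusted p = 0.00273 and 0.00149). For Thra, Rxra and Rxrg the pooled coefficients were −0.293, −0.477 and 0.0955, none past the threshold after adjustment. Within Mut and Ctrl, Rxrg had r = 0.604 and rho = 0.786 (n = 8, exact permutation adjusted p = 0.188 and 0.0598), and r = 0.853 without the 2 farthest libraries. Thra there had r = 0.136 and rho = 0.0952 (exact permutation adjusted p = 0.745 and 0.84), and r = −0.906 without those 2. Rxra had r = −0.352 and rho = −0.31 (exact permutation adjusted p = 0.486 and 0.577), and r = −0.836 without them. The 2 left out were Mut 2 and Ctrl 1. Shares in the remaining libraries were 29.4% to 32.9% in Ctrl and 34.6% to 36.7% in Mut. Group and share therefore cannot be told apart in the coefficients without those 2. With the share as a covariate, Thra in Mut against Ctrl was −0.84 (edgeR adjusted p = 0.0194) and Rxrg in PTU against Ctrl was 1.97 (adjusted p = 0.00953).

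Promoters of Rxrg are shown because it is the 1 retinoid X receptor gene that was called in a comparison. RefSeq (GRCm38.p6) gives it a pair of starts, and the 250 bases before each were searched on both strands for AGGTCA, in capitals where found.
Rxrg, first start, chr1:167598112-167598361: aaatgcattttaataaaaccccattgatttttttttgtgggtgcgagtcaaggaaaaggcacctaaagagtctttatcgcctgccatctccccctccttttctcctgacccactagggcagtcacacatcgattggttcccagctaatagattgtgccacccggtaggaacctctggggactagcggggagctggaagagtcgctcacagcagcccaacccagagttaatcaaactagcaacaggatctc
Rxrg, second start, chr1:167618015-167618264: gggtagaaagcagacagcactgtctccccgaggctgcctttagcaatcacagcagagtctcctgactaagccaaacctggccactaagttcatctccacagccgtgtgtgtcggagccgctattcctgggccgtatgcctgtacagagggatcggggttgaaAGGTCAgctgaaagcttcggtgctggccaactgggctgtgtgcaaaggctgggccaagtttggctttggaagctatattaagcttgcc
The hexamer occurs once in the window before the second start and not in that before the first. It also occurs once in a Thrb window and at 2 places in an Rxra window, and not in those of Rxrb. Of 32851 windows of this length, 14.02% hold it. The direct repeat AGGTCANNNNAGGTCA is in 5 of them, or 0.0152%, and in no window of these 4 genes. A match is a description of letters only.

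The genes whose levels ran most like those of each member were found by Pearson correlation of log2(CPM + 0.5) over 15 libraries, centred on the mean of each set, among 10069 genes. For Thrb they were Erc2 (0.99, 856.1 kb long), Ccdc85a (0.99, 198.6 kb) and Ppp2r2b (0.98, 422.0 kb). Rxrb was nearest to Isca2 (0.96), a gene of 1.8 kb, then Fnta and Acadvl. Thra was nearest to Wdr81 (0.93), Trp53 (0.90) and Nectin4 (0.90). Wdr81 averaged 26.4 CPM in Mut and 38.2 CPM in Ctrl, and Nectin4 averaged 5.20 CPM in Mut and 10.9 CPM in Ctrl. Rxra was nearest to Ssbp4, Arl4d and Dhx36 (0.91, 0.89 and 0.89), and Rxrg to Prrc1, Aifm2 and Tex9 (0.92, 0.85 and 0.84). Between members the coefficients lay between −0.81, for Thrb with Rxrb, and 0.50, for Thra with Rxra. These are descriptions over libraries that share depth and composition, with no test.

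Around the receptors, other genes of the pathway were read from the same fits. Of 18 corepressor and coactivator genes, 1, Hr, rose in PTU_TH against PTU, and the same 1 fell in Mut against Ctrl (log2 −3.06, edgeR adjusted p = 0.0259). The median of the 18 was 0.03 in each, beside −0.00 and 0.01 over all genes tested. Of the other partners of retinoid X receptors, such as the retinoic acid and liver X receptors, 0 of 9 tested were called in PTU_TH against PTU and 0 of 10 in Mut against Ctrl. Those with the smallest p were Nr1h2 (log2 −0.38, edgeR adjusted p = 0.498) in the first comparison and Nr4a2 (1.63, adjusted p = 0.0958) in the second. Among genes listed as direct hormone targets, 5 of 18 rose in PTU_TH against PTU, with a median of 0.59. In Mut against Ctrl, 3 of 17 fell, with a median of −0.41. Over all genes tested, 0.281% were called in PTU_TH against PTU, and 0.348% in Mut against Ctrl, 0.224% as lower. That list was chosen with earlier results of these data known, so its counts are a description and no independent support. Itga7, an integrin subunit gene (−1.82), and Sema7a, a membrane-bound semaphorin gene (−1.28), fell with Hr in Mut.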

How the data were processed

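Gene-level raw counts, as the authors deposited them, came as 1 table per library. Sorted nuclei gave RNA for a SMART-Seq ultralow input amplification and a Nextera XT library, read single-end, per the labels' protocols. Bowtie2 2.5.3 was the aligner and HTSeq the counter, with mm10 (GRCm38) as genome, per the submitters' processing notes. Not given in the sources used here are the annotation release, the counting mode and the setting for strand, which the kits do not mark. Tables for PTU_TH and PTU hold 55341 genes, and 48321 genes are in those for Mut and Ctrl. Comparisons across these sets used shared symbols only.

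Each comparison was fitted on its own libraries over all genes with edgeR 4.0.16 in R 4.3.3, using TMM scaling, filterByExpr (minimum count 10), quasi-likelihood tests with robust fits and Benjamini-Hochberg adjustment. A gene was called at an adjusted p under 0.05. All 5 members passed the filter in every comparison. The biological coefficient of variation was 21.9% to 29.6%. The scripts were tested on simulated data. Intervals are 95% and come from edgeR's estimate and error. Counting error apart, amplification adds variation that counts do not show.

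The members and gene lists were chosen with earlier results of these data known. Genes named are the members, Nr1d1, Hr and Klf9, the 3 genes most like each member in level, with a mean of at least 5 CPM and no predicted-model symbol, and up to 4 called genes of a list, or the 2 with the smallest p. A gene that meets the rule is left out here. Levels used a pseudocount of 0.5 on the log2 scale. A library was taken to have Y-linked counts where 4 Y-linked genes summed to at least 50 CPM. Alternatives were DESeq2 1.42.0, limma 3.58.1 voom with quality weights, other scaling and filters, 1 fit of all groups, the Y-linked counts as a covariate, a replicate block, omission of each library and, chosen after seeing the data, the long-gene share as a covariate. Positions and lengths are from GENCODE M21, and promoters from RefSeq.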

Additional observations from a re-analysis of the deposited data

How the results depend on the processing

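Counts of called genes moved most. PTU_TH against PTU called 43, and 203 with DESeq2, 171 with limma-voom, 335 with the Y-linked counts and 1012 with the long-gene share as covariates, and 5 to 29 without 1 library. Mut against Ctrl called 59, and 403 with DESeq2, 331 with limma-voom, 90 with a filter at 1 CPM, 196 in 1 fit of all groups, 31 with the Y-linked counts, 210 with the long-gene share and 11 to 103 without 1 library. PTU against Ctrl called 2804, 5653 with limma-voom and 2061 to 4283 without 1 library. PTU_TH against Ctrl called 2814, and 4539 with the long-gene share. Mut against PTU called 2464, 5776 with limma-voom and 1720 to 3189 without 1 library. The cause was not tested. Thra in Mut against Ctrl was called in 10 of 18 alternatives. It missed the threshold at −0.83 with the Y-linked counts and −0.84 with a replicate block, and was −0.93 to −0.78 without 1 library. Rxrg in PTU against Ctrl was 1.41 to 2.22 without 1 library. In PTU against Ctrl, limma-voom also called Thra (0.45) and Thrb (−0.84), and without 1 library these were 0.30 to 0.45 and −1.07 to −0.12, both called without PTU 5. In Mut against PTU, limma-voom called Thrb (1.19), Rxra (−0.59) and Rxrb (−0.53), and Thrb, 0.19 to 1.17 without 1 library, was called without PTU 5. Uncalled values changed sign for Thrb without 1 library in PTU_TH against PTU (−0.19 to 0.87), Mut against Ctrl (−0.0777 to 0.35) and PTU_TH against Ctrl (−0.59 to 0.036). They did so for Rxrb in PTU_TH against PTU (−0.015 to 0.18 without 1 library) and in Mut against Ctrl. There Rxrb was −0.22 with limma-voom, −0.0475 with the Y-linked counts, −0.0034 with a replicate block, −0.0051 with the long-gene share and −0.17 to 0.12 without 1 library. Rxra in PTU against Ctrl was 0.0091 with limma-voom, and Rxrg in Mut against PTU was −0.59 to 0.0236 without 1 library. Mean levels of the members moved by less than 1 SD with other scaling. Without PTU 5 the mean of Thrb in PTU was 219 CPM, beside 344 CPM with it. Replicate numbers were not taken as pairs. Same-numbered Mut and Ctrl libraries had correlations of −0.08 to 0.38, and differently numbered ones −0.32 to 0.25. For PTU_TH and Ctrl, same-numbered libraries had −0.46 to 0.29 and the others −0.51 to 0.55. In these comparisons 2 of 4 and 1 of 4 correlated best with their own number. With so few libraries, these values cannot decide whether Mut and Ctrl libraries were paired. With a replicate block, 82 genes were called in Mut against Ctrl and 2424 in PTU_TH against Ctrl. Depth limits Rxrg most, at 16 to 206 counts per library.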

Other observations

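Several genes around the receptors were called across the sets of tables, where set and treatment cannot be told apart. Over all genes tested, 17.0% were called in PTU against Ctrl and 17.8% in PTU_TH against Ctrl. Of other nuclear receptors of neurons, 1 was called higher and 1 lower in each, among 20 and 19 tested. Of other partners of retinoid X receptors, 1 of 10 tested was called in PTU against Ctrl. Esr2, the gene of estrogen receptor beta, was lower in PTU than in Ctrl (log2 −3.63, edgeR adjusted p = 0.00103), at means of 0.135 CPM in PTU and 1.74 CPM in Ctrl, and it was lower in PTU_TH than in Ctrl as well (log2 −3.11, edgeR adjusted p = 0.00174). Nr1d1 was higher in PTU than in Ctrl (log2 1.05, edgeR adjusted p = 0.00476), and Nr4a1, an orphan receptor of the immediate early response, was higher too (log2 0.85, edgeR adjusted p = 0.0124). Nr1d1 was also higher in PTU_TH than in Ctrl (log2 1.07, edgeR adjusted p = 0.00106), and its log2 difference was 0.04 in PTU_TH against PTU (not called). Both comparisons use the same Ctrl libraries. Within the Mut and Ctrl set, Rbp4, which encodes the plasma carrier of retinol, was higher in Mut (log2 1.62, edgeR adjusted p = 0.00708). It was the 1 called gene of 7 tested for retinoid handling, where 0.348% of all genes were called.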
